A study of Danio rerio with 6 samples.

Results

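The genes described here copy DNA and divide chromosomes, or set the time at which cells do so. They were chosen by name: a probe set was a member where its only annotated gene symbol was that of an mcm, orc, rfc, rpa, rrm, top2, bub, plk, aurk, cenp, kif, smc or ncap gene, of pcna, cdk1 or cdk2, of a cyclin of the A, B, D or E type, or of cdc6, cdc7, cdc20, cdc25 or cdc45. This gave 119 probe sets of 84 genes, among 10795 probe sets with 1 symbol and 15617 in all. The pattern also took 10 genes with other tasks, namely kinesins of cilia and axons, kinesin partner proteins and cdc73, a gene of the Paf1 transcription complex, and these are given apart. Of the rest, 31 genes were placed under replication and 43 under mitosis by their symbols. Not every one need act there, as for smc5, of a repair complex, which is placed under mitosis.

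The RNA was that of whole embryos of the zebrafish, taken 25 hours after fertilization. The labels give 3 samples as prdm1 null mutants, prdm1a in the text on the design, and 3 as wild type, all sorted by eye by phenotype. No allele, strain or number of embryos is given in the sources used here. The protein made from prdm1a is a transcription factor with zinc fingers, needed for slow muscle fibres and for cells of the neural crest. The comparison of mutant with wild type asks which transcripts differ in level, and here whether those of the dividing cell do.

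Before DNA is copied, the origin recognition complex (Orc) and Cdc6 load the ring-shaped Mcm helicase onto origins, and the kinase Cdc7 with Cdc45 sets it in motion. At the fork, the clamp Pcna is loaded by replication factor C (Rfc), replication protein A (Rpa) covers single strands, and ribonucleotide reductase (Rrm) supplies the building blocks. In mitosis, cyclin B with Cdk1 drives entry, condensin and topoisomerase II shape the chromosomes, kinesins move them, and Bub proteins hold back Cdc20 until all are attached. Many of these transcripts are made in step with the cell cycle, and an embryo at this age holds dividing progenitors beside muscle and nerve cells that have left the cycle. In RNA of whole embryos, fewer cells of a type and less RNA per cell cannot be told apart.

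Array medians lay between a signal of 132 and 148. Of the members, 94 probe sets of 77 genes passed the filter on dim values (mean log2 signal of at least 5.36, a signal of 41.1), and 25 probe sets lay below it, among them every probe set of 7 genes. Differences are given as log2 signal, mutant minus wild type, and a probe set was called where the adjusted p of limma, over 10851 probe sets, was under 0.05. The ratio of 3′ to 5′ signal at control probe sets, a sign of RNA quality, was lower on every mutant array, at 3.28 to 7.65 against 9.16 to 14.5 for gapdhs and at 26.2 to 38.8 against 55.4 to 92.4 for actc1b (exact permutation test, two-sided, n = 3 against 3, p = 0.1, the lowest value possible at this size). It therefore moved with genotype beside every result here, so a fit with a ratio as a covariate cannot tell ratio and genotype apart. The gene actc1b is also on the list of fast muscle genes below. Its brightest probe set was higher on every mutant array, at 0.38 (limma adjusted p = 0.0558). Whether its ratio follows RNA quality alone was not tested. Differences with these ratios as a covariate are given with the members that were called or came close. Where a call was lost in such a fit, the cause was not tested. Of the 42 members named by rule, the difference moved by over 1.5 times, or turned, in 31 with the gapdhs ratio and in 29 with the actc1b ratio.

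Most transcripts of the cell cycle differed little between mutant and wild type. Over all probe sets 3.39% were called, and of the 94 member probe sets 3 were called (3.19%), 2 of the cyclin gene ccnb3, higher in the mutant, and that of the kinesin gene kif19, lower (over all probe sets 1.54% were called higher and 1.85% lower). The kif19 probe set lies outside both processes and passed the filter through the wild type alone, so its call says nothing about the members. Another 4 of the 94, of ncaph, smc1al, kif15 and mcm3, passed through the mutant alone. With unadjusted p-values under 0.05 there were 14 member probe sets, 10 higher and 4 lower, while 20.6% of all probe sets passed (10.2% higher and 10.3% lower). With each gene read from its brightest probe set, 73 of 77 genes differed by less than 0.5 on the log2 scale (94.8%, against 78.9% of the 7053 named genes tested). For 72 of 77 the 95% interval of the difference lay within a 2-fold change in either direction, which held for 73.8% of named genes (67.6% of all probe sets). The 5 whose interval reached further were top2a, kif20a, plk2b, rrm2b and kif19. Members also had smaller errors than most genes, with a median SE of 0.18 against 0.20.

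**Figure D1:**
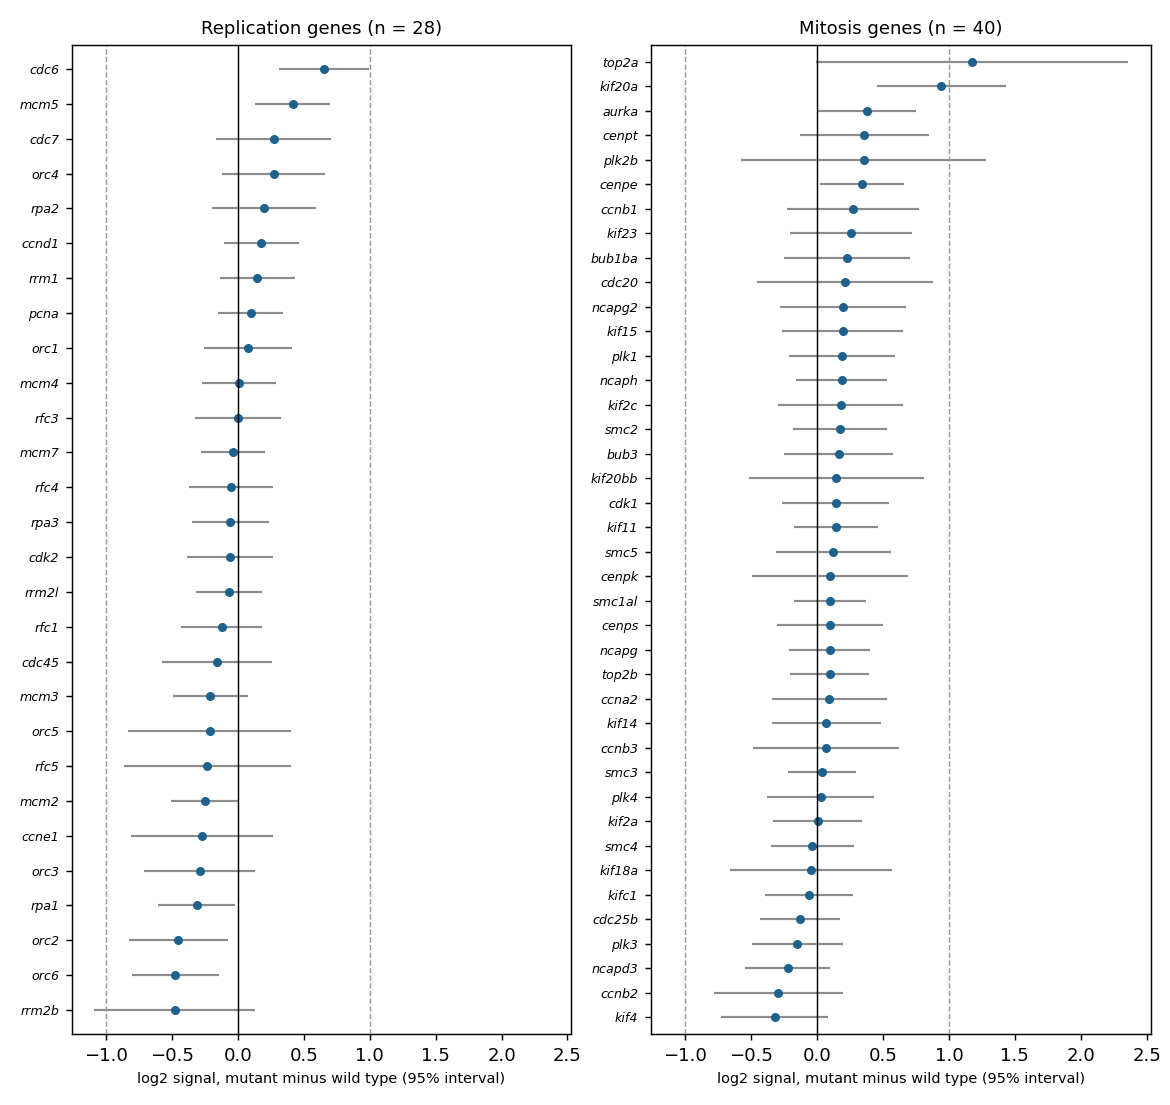
Log2 difference in signal, mutant minus wild type (x axis), for each tested replication gene (left, 28 genes) and mitosis gene (right, 40 genes), read from its brightest probe set. Points are differences of means over 3 arrays each, lines are 95% intervals from limma, and dashed lines mark a 2-fold change. Only kif20a, top2a, plk2b and rrm2b have intervals that cross a dashed line.

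The replication genes had a median difference of -0.057 over 28 tested genes, beside 0.0021 over all named genes, with 11 above 0. None was called in limma, and 5 had an unadjusted p under 0.05 (17.9%, against 20.3% of named genes), 2 of them higher and 3 lower in the mutant. The clearest was cdc6, the loader of the helicase. Its signals were 1254, 1135 and 1059 in the mutant and 642, 736 and 820.1 in the wild type, so that every mutant array lay above every wild-type array. The mutant was 1.57-fold higher, a log2 difference of 0.65 (SE 0.15, 95% interval 0.31 to 0.99, limma adjusted p = 0.0523), just short of the threshold. It passed with cyclic loess (0.0458), an offset of 64 (0.0474), the robust variance (0.0481) or without wild type replicate 3 (0.0353), and was at 0.88 and 0.79 with the gapdhs and the actc1b ratio as a covariate (limma adjusted p = 0.219 and 0.377).

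The measured differences of Mcm helicase subunits, which work as 1 ring, lay on both sides of 0. Signals of mcm5 were 3720.0, 3391 and 3381 in the mutant and 2835, 2753 and 2304 in the wild type, without overlap and higher in the mutant. The difference was 0.42 (95% interval 0.13 to 0.70, limma adjusted p = 0.111). Fits with the gapdhs and the actc1b ratio as a covariate gave 0.37 and 0.057 for mcm5. Signals of mcm2 were 4413, 4449 and 4903 in the mutant and 5538, 5854 and 4984 in the wild type, also without overlap but lower in the mutant, a difference of -0.25 (limma adjusted p = 0.261). The same 2 fits gave -0.40 and -0.38 for mcm2. The brighter probe set of mcm3 was lower on every mutant array as well, at -0.21 (limma adjusted p = 0.382). The other measured subunits lay near 0, mcm4 at 0.011 (95% interval -0.27 to 0.29) and mcm7 at -0.033 (95% interval -0.28 to 0.21). None of these passed. The probe sets of mcm6, mcm6l and mcm9 were below the filter, with signals of 3.18 to 46.8 in all arrays, and are not compared.

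The origin recognition genes were spread to both sides of 0. Signals of orc6 were 558, 486 and 584 in the mutant and 763, 719.8 and 772 in the wild type, lower on every mutant array, with a log2 difference of -0.47 (SE 0.15, 95% interval -0.80 to -0.14, limma adjusted p = 0.115). Fits with the gapdhs and the actc1b ratio as a covariate gave -0.60 and -0.50 for orc6. To complete the complex, orc2 was at -0.45 (limma adjusted p = 0.171) with no overlap between groups, while orc1, orc3, orc4 and orc5 overlapped, at 0.078, -0.29, 0.27 and -0.21. The firing factors cdc45 and cdc7 were at -0.16 (95% interval -0.58 to 0.26) and 0.27 and overlapped. Over replication genes, 7 of 28 had arrays that did not overlap between groups, 2 higher and 5 lower in the mutant, beside 27% of all probe sets (13.2% higher and 13.8% lower).

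At the fork, levels were close in the brightest probe sets. The sliding clamp gene pcna had signals of 14747, 13593 and 15411 in the mutant and 13773, 14714 and 12429.6 in the wild type, and the groups overlapped at 0.098 (95% interval -0.15 to 0.34), a difference that quantile normalization turned to -0.070. For the single-strand binding gene rpa1, signals were 4164, 3991 and 3371 in the mutant and 5231, 4364 and 4686 in the wild type, lower on every mutant array at -0.31 (limma adjusted p = 0.219), while rpa2 and rpa3, its partners, were at 0.20 and -0.056. The reductase genes rrm1 and rrm2l, for its large and small subunit, were at 0.15 and -0.065. The small subunit gene rrm2b, which p53 induces in mammals, had signals of 124, 135 and 238 in the mutant and 203, 227 and 231 in the wild type. Mutant replicates 1 and 2 lay below all wild-type arrays and replicate 3 above them, and the difference was -0.48 (95% interval -1.09 to 0.13). Over left-out arrays it ran from -0.77 to -0.30, the ends being those without mutant replicates 3 and 1, and it was at -1.05 and -0.085 with the gapdhs and the actc1b ratio as a covariate (limma adjusted p = 0.375 and 0.966). The clamp loader genes rfc1, rfc3, rfc4 and rfc5 lay between -0.23 and 0.0032 in their brighter probe sets. The probe sets of rfc4 disagreed, with the brighter at -0.051 and the dimmer at 1.104. The latter was the largest difference among the 31 tested replication probe sets, and it was not called.

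The cyclins that bring cells into S phase did not separate the groups. Signals of ccnd1, the cyclin D1 gene, were 5612, 6518 and 6472 in the mutant and 5697, 5958 and 4804 in the wild type in the brighter of 2 probe sets, and the 2 probe sets were at 0.18 and -0.030. The cyclin E gene ccne1 was at -0.27 (95% interval -0.81 to 0.27) and the kinase gene cdk2 at -0.058 (95% interval -0.39 to 0.27). All of these overlapped and none passed.

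**Figure D2:**
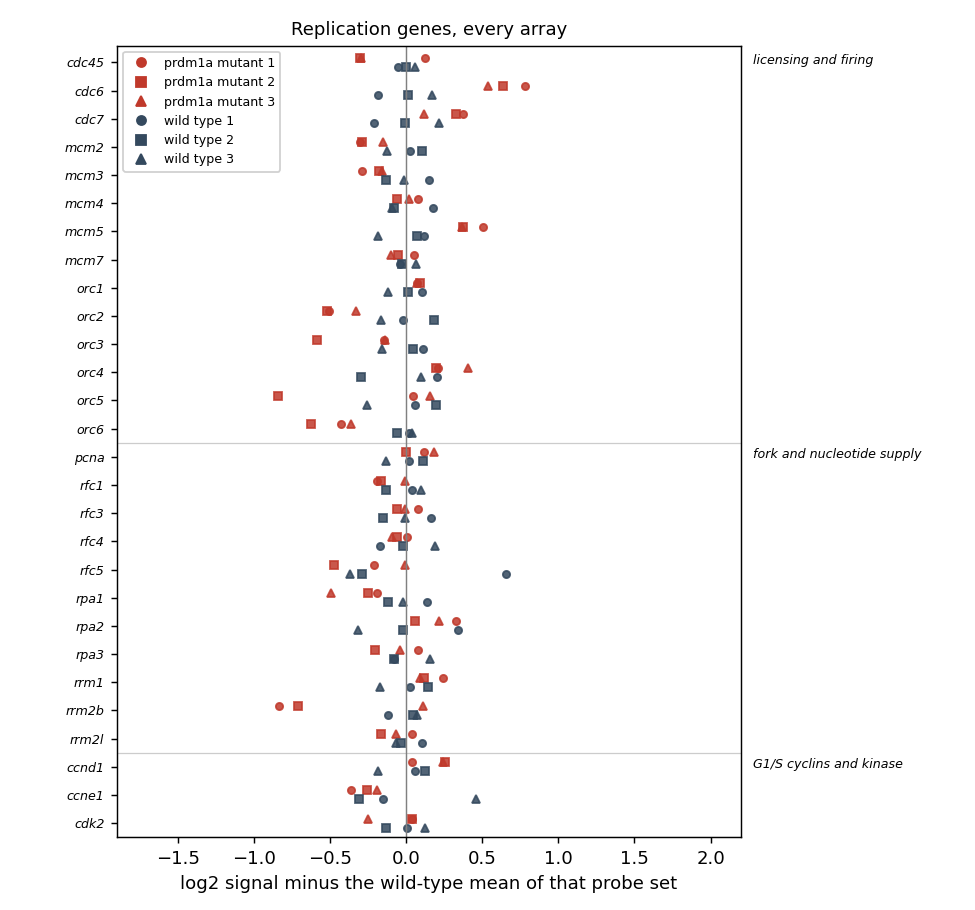
Log2 signal of each replication gene on each of the 6 arrays, minus the mean of the wild-type arrays for that probe set (x axis), with genes in rows by role. Red marks are prdm1a mutant and dark marks wild type, and the shape gives the replicate. For cdc6 and mcm5 the 3 mutant arrays lie to the right of all wild-type arrays, and for orc2, orc6, rpa1, mcm2 and mcm3 to the left.

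The mitosis genes lay slightly higher in the mutant, with a median difference of 0.13 over 40 tested genes and 32 of them above 0 (80%, against 50.2% of named genes). The share above 0 without wild type replicate 3 is not given here. Over left-out arrays the median ran from 0.040 to 0.17, lowest without wild type replicate 3. With the gapdhs ratio as a covariate it was 0.00695 and with the actc1b ratio -0.092. Read from the brightest probe set, none of the 40 genes was called in limma. An unadjusted p under 0.05 was found for 3, all higher in the mutant (7.5%, against 20.3% of named genes). Arrays did not overlap for 4 (10%, against 27% of all probe sets). Over all 54 tested probe sets of these genes 2 were called, both of ccnb3 (3.7%, against 3.39% of all probe sets).

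The gene kif20a, whose kinesin carries the chromosomal passenger complex to the midzone for cytokinesis in mammalian cells, came closest among the brightest probe sets. Its signals were 8280.1, 5930.3 and 7718 in the mutant and 3948, 2737 and 4948 in the wild type, every mutant array above every wild-type array. The mutant was 1.92-fold higher, a log2 difference of 0.94 (SE 0.22, 95% interval 0.45 to 1.43, limma adjusted p = 0.0514). It passed with offsets of 16 (0.0478) and 64 (0.0436), with the replicate number as a block (0.026) and without wild type replicate 3 (0.0181). It was at 0.91 and 1.19 with the gapdhs and the actc1b ratio as a covariate (limma adjusted p = 0.44 and 0.344). A dimmer probe set of the gene was at 0.76 (95% interval -0.20 to 1.71) and overlapped.

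Cyclin B3, a cyclin known from meiosis and anaphase in animals, gave different answers from its 4 probe sets. The third by brightness had signals of 149, 168 and 207 in the mutant and 74.8, 57.7 and 46.9 in the wild type, with a log2 difference of 1.56 (SE 0.27, 95% interval 0.95 to 2.17, limma adjusted p = 0.0174). The dimmest had signals of 144, 144 and 152 in the mutant and 49.6, 53.2 and 52.7 in the wild type, with a log2 difference of 1.50 (SE 0.23, 95% interval 0.98 to 2.02, limma adjusted p = 0.0103). In both, all mutant arrays lay far above all wild-type arrays, 2.95-fold and 2.83-fold. The 2 brighter probe sets overlapped between groups, with signals of 335, 396 and 269.6 in the mutant and 409.9, 323 and 235 in the wild type at 0.067 (95% interval -0.49 to 0.62) for the brightest and 0.27 for the next. By their names, the 2 called probe sets come from 1 cluster sequence and the other 2 from another, so that the called ones are not independent of each other. By the maker's naming, a suffix x marks probes that may bind other transcripts, and 1 probe set of each pair carries it. The third probe set was at 1.08 and 1.26 with the gapdhs and the actc1b ratio as a covariate (limma adjusted p = 0.39 and 0.432) and the dimmest at 1.47 and 1.56 with the gapdhs and the actc1b ratio as a covariate (limma adjusted p = 0.202 and 0.276). Calls ended without wild type replicate 2 for both (0.0785 and 0.0534), and for the third also without mutant replicates 2 (0.0604) or 3 (0.0707) and with the replicate block (0.0515).

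**Figure D3:**
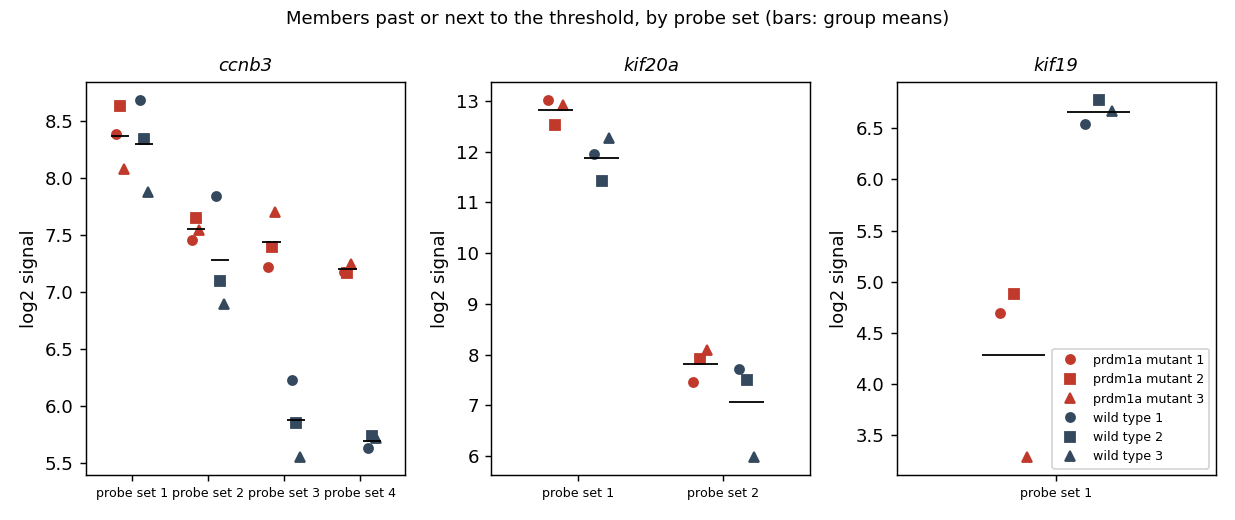
Log2 signal on each array (y axis, a separate scale in each panel) for the 4 probe sets of ccnb3, the 2 of kif20a and the 1 of kif19, ordered from brightest to dimmest. Red marks are prdm1a mutant, dark marks wild type, shapes give the replicate and bars the group means. In ccnb3 the 2 dimmer probe sets separate the groups and the 2 brighter do not.

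The other genes of mitotic entry overlapped between groups. Signals of cyclin B1 (ccnb1) were 1545, 1617 and 1818 in the mutant and 1902, 1368 and 989 in the wild type, so the wild type held both the highest and the lowest array, and the difference was 0.27 (95% interval -0.22 to 0.77). Its kinase gene cdk1 was at 0.14 (95% interval -0.26 to 0.55), ccna2 at 0.093, ccnb2 at -0.29 and the brightest probe set of the activating phosphatase gene cdc25b at -0.13. None of these passed. The probe sets of ccna1 and ccnb1l were below the filter.

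Among mitotic kinases and the checkpoint, aurka, whose kinase ripens centrosomes and spindle poles, had signals of 960.1, 1018 and 1026 in the mutant and 946, 734 and 659.5 in the wild type. It was higher on every mutant array, with a log2 difference of 0.38 (SE 0.16, 95% interval 0.0035 to 0.75, limma adjusted p = 0.239), and was at 0.18 and 0.084 with the gapdhs and the actc1b ratio as a covariate (limma adjusted p = 0.865 and 0.945). The kinase gene plk1 had signals of 2915, 2837 and 2836 in the mutant and 3092, 2707 and 1892 in the wild type, with a tight mutant group inside the range of the wild type, and was at 0.19 (95% interval -0.21 to 0.59). Signals of cdc20, which activates the ligase that ends metaphase, were 919.8, 850.5 and 807 in the mutant and 1148, 792 and 446 in the wild type, again within the range of the wild type, at 0.21 (95% interval -0.46 to 0.88). The checkpoint genes bub1ba and bub3 were at 0.23 and 0.16 and overlapped. A dimmer probe set of bub3 was at 1.43 (limma adjusted p = 0.201) and overlapped, with wild-type signals of 421, 209 and 76.9. The only probe set of bub1bb lay below the filter, with signals of 25.6, 32.4 and 40.7 in the mutant and 4.47, 7.81 and 3.62 in the wild type, and is not compared.

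Of 11 tested genes of chromosome structure, 10 differed by less than 0.5 on the log2 scale in their brightest probe sets. The cohesin and condensin genes smc1al, smc2, smc3 and smc4 were at 0.098, 0.17, 0.039 and -0.035 in their brightest probe sets, and smc5, of the repair complex, at 0.12. The condensin genes ncapg and ncaph were at 0.096 (95% interval -0.21 to 0.40) and 0.19 (95% interval -0.16 to 0.53), and ncapd3, of condensin II, was lower on every mutant array at -0.22 (limma adjusted p = 0.411). Topoisomerase II alpha (top2a) was the exception in spread. Its brightest probe set had signals of 72.7, 129 and 221 in the mutant and 61.5, 102 and 28.6 in the wild type, which overlapped, and a difference of 1.17 (95% interval -0.0073 to 2.36, limma adjusted p = 0.245). Its 4 other probe sets lay below the filter. Over left-out arrays the difference ran from 0.68 to 1.60, lowest without wild type replicate 3, and it was at 0.045 and 0.62 with the gapdhs and the actc1b ratio as a covariate (limma adjusted p = 0.99 and 0.855).

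At the centromere, cenpe, a kinesin of the outer kinetochore, had signals of 1791, 1746 and 1554 in the mutant and 1361, 1179.8 and 1496 in the wild type. It was higher on every mutant array, with a log2 difference of 0.34 (SE 0.14, 95% interval 0.021 to 0.66, limma adjusted p = 0.217). Fits with the gapdhs and the actc1b ratio as a covariate gave 0.51 and 0.48 for cenpe (limma adjusted p = 0.489 and 0.541). The genes cenpt, cenps and cenpk, of the inner kinetochore, were at 0.36, 0.096 and 0.098 and overlapped. Of the spindle kinesins other than kif20a, kif11, which pushes spindle poles apart, had signals of 2654, 2729.8 and 2302 in the mutant and 2152, 2139.7 and 2700.0 in the wild type, and was at 0.14 (95% interval -0.18 to 0.46). The cytokinesis kinesin gene kif23 was at 0.26 (95% interval -0.21 to 0.72), and kif4, which acts on chromosome arms, at -0.32 (95% interval -0.72 to 0.087). In the fits with the gapdhs and the actc1b ratio, kif11 was at 0.40 and 0.42, kif23 at 0.026 and -0.31, and kif4 at -0.027 and -0.14. The 7 that remain, kif2a, kif2c, kif14, kif15, kif18a, kif20bb and kifc1, lay between -0.062 and 0.19 and overlapped.

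The wild-type arrays lay farther apart in mitosis genes than the means of the groups did. Relative to the mean of the 6 arrays, the median mitosis gene stood at 0.13, -0.057 and -0.21 in wild type replicates 1, 2 and 3, and at 0.040, 0.098 and 0.084 in the mutant. Wild type replicate 3 was the lowest of 6 arrays for 21 of 40 mitosis genes (52.5%, against 21.6% of named genes), and wild type replicate 1 the highest for 14 (35% against 17.8%). Mutant replicates 1, 2 and 3 were the highest for 5, 11 and 8 (12.5%, 27.5% and 20%, against 14.4%, 14.7% and 17.7% of named genes). The SD within the wild type exceeded that within the mutant for 30 of 40 mitosis genes and for 55.8% of named genes, with medians of 0.23 and 0.14 over mitosis genes. The signals of cdc20, plk1 and ccnb1 given above show this pattern. For replication genes the corresponding array medians ran from -0.069 to 0.082, with the groups interleaved. Among wild-type arrays, replicate 3 also had the highest 3′ to 5′ ratios, 14.5 for gapdhs and 92.4 for actc1b; the part of this in the spread of mitosis genes was not tested.

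**Figure D4:**
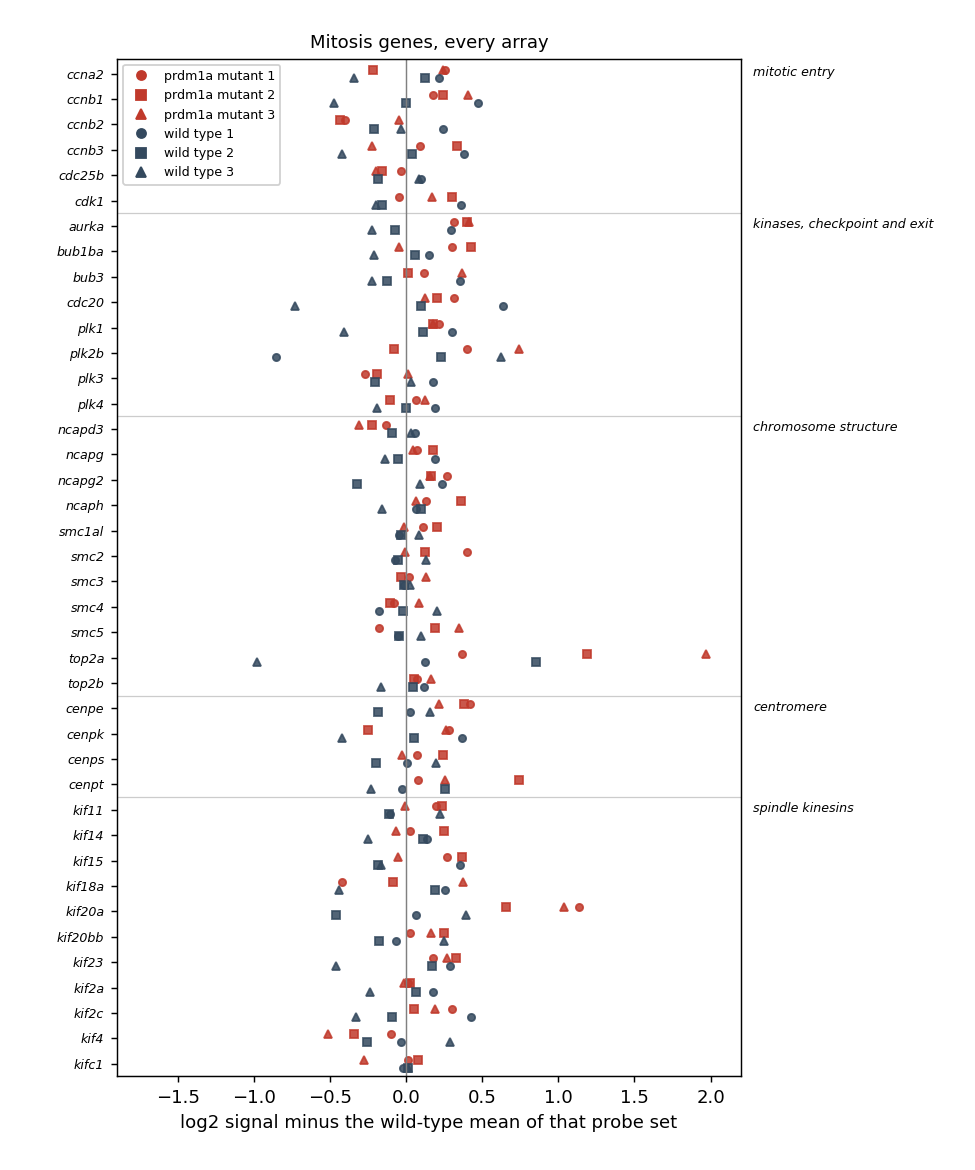
Log2 signal of each mitosis gene on each of the 6 arrays, minus the mean of the wild-type arrays for that probe set (x axis), with genes in rows by role. Red marks are prdm1a mutant and dark marks wild type, and the shape gives the replicate. Wild type replicate 3 is farthest left in 21 of 40 rows. For ccnb1, cdc20 and plk1 the mutant arrays lie between the wild-type ones, while for kif20a the mutant arrays lie to the right.

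**Figure D5:**
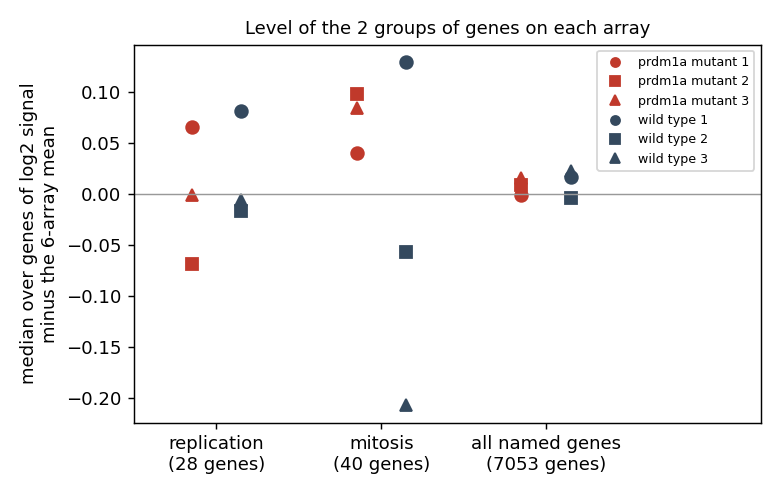
Median over genes of the log2 signal minus each gene's mean over the 6 arrays (y axis), for 28 replication genes, 40 mitosis genes and all 7053 named genes. Each mark is 1 array. The wild-type arrays span 0.13 to -0.21 for mitosis genes and the mutant arrays lie within that span.

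Several genes had probe sets that differed from one another. Of 20 genes with more than 1 probe set, 12 had more than 1 tested, with 17 tested probe sets beside the brightest. Of these, 4 (of ncaph, smc1al, kif15 and mcm3) passed the filter through the mutant alone, had to differ, and are left out here, a choice made after seeing the data. Of the 13 others, 8 lay higher in the mutant than the brightest one of their gene, with a median difference of 0.29 beside 0.16 for the brightest of the same 9 genes. Examples, chosen after their values were seen, are kif23 (0.26 in the brighter and 0.55 in the dimmer) and cdc25b (-0.13, 0.13 and 0.29 from bright to dim), neither called in any probe set. Wider gaps were those of rfc4 (-0.051 in the brighter and 1.104 in the dimmer) and bub3 (0.16 and 1.43), also without a call. The 13 hold the 2 called probe sets of ccnb3.

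Among the 9 tested genes outside both processes, kif19 was called. In mice its kinesin trims microtubules at the tips of cilia. Its signals were 25.9, 29.4 and 9.77 in the mutant and 93.4, 109 and 102 in the wild type, all wild-type arrays far above the mutant ones, 5.19-fold, with a log2 difference of -2.38 (SE 0.45, 95% interval -3.38 to -1.37, limma adjusted p = 0.0237). Its mutant mean of 4.29 on the log2 scale lies under the filter level, so it passed the filter through the wild type alone and had to differ, and the call supports nothing about the members. The fold depends on the offset: with an offset of 64 the difference was -0.96 (limma adjusted p = 0.00779). The call ended without any 1 of the wild-type arrays (limma adjusted p = 0.0553, 0.122 and 0.0505) and after quantile normalization (0.0539), and it was at -1.25 and -2.58 with the gapdhs and the actc1b ratio as a covariate (limma adjusted p = 0.454 and 0.344). Other kinesin genes of cilia were not called. The motor gene kif3a was lower on every mutant array at -0.30 (limma adjusted p = 0.389), its partner kifap3a was at -0.16, and kif7, which acts in Hedgehog signalling, at 0.088. The axonal transport gene kif1b was at -0.11. The brighter probe set of cdc73 was lower on every mutant array, at -0.44 (limma adjusted p = 0.277), and the only probe set of kifap3b lay below the filter.

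Other genes of the same processes, outside the naming pattern, were read from lists chosen for this purpose. Of 23 tested replication genes none was called in limma, with 3 at an unadjusted p under 0.05 (13.0%), all higher, and a median of 0.028. Over all named genes 3.16% were called and 20.3% had an unadjusted p under 0.05. The smallest p-values were those of the thymidine kinase gene tk1 at 0.64 and rnaseh2a at 0.80 (limma adjusted p = 0.137 and 0.137). With the gapdhs ratio as a covariate they were at 0.32 and 0.038, and with the actc1b ratio at 0.67 and 0.28. Of 23 tested genes on the mitosis list 1 was called higher and 1 lower (8.7% called). The median was 0.16, and 20 were above 0 (87.0%, against 50.2% of named genes). This list was read from the same arrays as the members, so the share is not separate evidence of a rise. Its summed signal was 28686 to 29474 in the mutant and 28370, 25985 and 23596 in wild type replicates 1, 2 and 3. The share without wild type replicate 3, or with a ratio as a covariate, is not given here. At an unadjusted p under 0.05 there were 5 (21.7%), 4 higher and 1 lower. The list holds cdca7a and cdca7b, whose part in mitosis is not shown here. The kinetochore gene spc24 rose: its signals were 518, 859.8 and 871 in the mutant and 311, 267 and 277 in the wild type, with a log2 difference of 1.36 (SE 0.22, 95% interval 0.85 to 1.86, limma adjusted p = 0.0134). Its partners in the Ndc80 complex, ndc80 and nuf2, were at 0.26 and -0.28 and did not pass. The spc24 call was lost when mutant replicate 2, mutant replicate 3 or wild type replicate 2 was left out (limma adjusted p of at most 0.0708), and it was at 1.07 and 1.80 with the gapdhs and the actc1b ratio as a covariate (limma adjusted p = 0.327 and 0.169). The gene cdca7b fell, with signals of 459.6, 606 and 445 in the mutant and 1028, 839 and 809 in the wild type and a difference of -0.83 (limma adjusted p = 0.0397), and its paralog cdca7a was at 0.13. That call ended without the variance trend (0.0775), with the replicate block (0.0739), and on leaving out mutant replicate 1, mutant replicate 3, wild type replicate 1 or wild type replicate 2 (at most 0.143), and it was at -0.74 and -0.87 with the gapdhs and the actc1b ratio as a covariate (limma adjusted p = 0.444 and 0.414).

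Of 22 tested genes that control the cycle, none was called in limma from its brightest probe set, and the median was -0.083. At an unadjusted p under 0.05, 1 was higher and 1 lower (9.1%, against 20.3% of named genes). The transcription factor gene foxm1, known to drive mitotic genes, had signals of 153, 182 and 349 in the mutant and 533, 449.9 and 361 in the wild type. It was lower on every mutant array, with a log2 difference of -1.05 (SE 0.31, 95% interval -1.75 to -0.36, limma adjusted p = 0.1). It passed without mutant replicate 3 (0.0362) and with the gapdhs ratio as a covariate (-1.97, limma adjusted p = 0.036), but not with the actc1b ratio (-1.10, limma adjusted p = 0.526). The E2F partner gene tfdp2 was at 0.76 (limma adjusted p = 0.0586), passed with cyclic loess (0.0477), and was at 0.93 and 0.54 with the gapdhs and the actc1b ratio as a covariate (limma adjusted p = 0.313 and 0.597). A second probe set of cdkn1bb, a gene for a p27 type inhibitor of cyclin-dependent kinases, was chosen after its values were seen. Its signals were 82.2, 81.7 and 69.6 in the mutant and 239, 278 and 229 in the wild type, with a log2 difference of -1.67 (SE 0.21, 95% interval -2.15 to -1.20, limma adjusted p = 0.00454), and the brighter one was at -0.32. It was at -1.52 and -1.87 with the gapdhs and the actc1b ratio as a covariate (limma adjusted p = 0.147 and 0.164).

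Markers of cell types show what else moved with genotype, beside 3.16% of all named genes called and 20.3% with an unadjusted p under 0.05. The summed signal of 12 fast muscle genes was 146936 to 193860.4 in the mutant and 96959 to 111492 in the wild type, with 6 called higher, and that of the 2 tested slow muscle genes was 5251 to 7171 in the mutant and 16313 to 18584 in the wild type, both called lower. For 4 blood genes it was 1315 to 1966 in the mutant and 2722 to 3796 in the wild type, with the globin gene hbbe2 called lower. That sum follows hbbe2, at -1.91, and the blood genes did not share a direction. Their median difference was 0.12, 2 of the 4 were above 0, and 1 was higher and 1 lower at an unadjusted p under 0.05. With the gapdhs ratio as a covariate 5 of the 6 fast muscle calls, 1 of the 2 slow muscle calls and that of hbbe2 were lost, and with the actc1b ratio 6, 1 and 1. A lost call did not always come with a smaller difference. With the actc1b ratio hbbe2 went from -1.91 to -2.32 and mylz3 from 0.99 to 0.48. Leaving out single arrays ended up to 3 of the fast muscle calls, and without wild type replicate 2 also 1 of the slow muscle calls. For 9 genes of neural progenitors, cells that divide at this age, the summed signal was 13034 to 14143 in the mutant and 13236 to 15303 in the wild type, with none called in limma (2 higher and 1 lower at an unadjusted p under 0.05, with pax6b at 0.53 and notch3 at -0.96). Much of that sum was sox3, with signals of 6354 to 7609. The median difference of the 9 was -0.020, and 4 were above 0. Without mutant replicate 2 notch3 was called (-1.35, limma adjusted p = 0.0231), and it was at -0.41 and -0.15 with the gapdhs and the actc1b ratio as a covariate (limma adjusted p = 0.822 and 0.945). For 11 genes of neurons that have left the cycle the summed signal was 7909 to 10119 in the mutant and 8489.9 to 10578 in the wild type, with none called from the brightest probe set (3 lower at an unadjusted p under 0.05, with the smallest p for prph at -0.96 and stmn2a at -0.66). A large part was tubb5, with signals of 2419 to 3814. The median difference of the 11 was -0.23, and 3 were above 0. Arrays did not overlap for 4, all lower (36.4%, against 27.7% of named genes). A dimmer probe set of prph, which encodes a neuronal filament protein, was called lower, with signals of 48.5, 46.2 and 35.6 in the mutant and 181, 165 and 138 in the wild type (log2 difference, 95% interval -2.49 to -1.30, limma adjusted p = 0.00629), a call lost with either ratio as a covariate and without wild type replicate 2 (0.0506). Of 5 germ cell genes 2 were tested, dnd1 at -0.91 and nanos3 at -0.86, neither called nor under 0.05 unadjusted, with a sum of 132 to 391 in the mutant and 301 to 558 in the wild type. The part of muscle, blood or other cells in the differences of cell cycle genes was not tested.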

How the data were processed

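Probe set intensities on a linear scale were made by the authors with MAS5, per the submitters' processing notes. The sources used here give neither the MAS5 version nor the scaling target. The deposited intensities had a mean after trimming 2% of 500.1 on every array, so they had been scaled. Of 15617 probe sets, 115 controls were set aside and the dimmest 30% of the rest (4651 of 15502) left out. The 10851 others were log2-transformed and fitted with limma 3.58.1 in R 4.3.3 (genotype as the only term, eBayes with a variance trend, Benjamini-Hochberg over all, threshold 0.05). The fit was also run on simulated data with independent errors and known changes. These held no shift in 3′ to 5′ ratio and no outlying array, so the run does not bear on either. Symbols came from a platform annotation, probe sets with several symbols stayed unnamed, and all 84 member symbols were found in the RefSeq gene table of GRCz12tu. A gene is read from its brightest tested probe set.

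Members and lists were chosen with earlier results of these data known. Named genes are every called member, the 3 with the smallest p in each role group, a fixed set of well-known members, and from other lists those called or the 2 with the smallest p; further members complete a complex. Same-numbered replicates did not deviate together (correlations of 0.061, 0.052 and -0.075). Alternatives were other normalizations, offsets of 16 and 64, no filter or one of 50%, other variance models, the replicate block, 3′ to 5′ ratios as covariates, each array left out, and averaging all probe sets of a gene. No label names separate clutches, so p-values measure the spread between these samples. The number of arrays limits the precision. Figures were drawn with matplotlib 3.10.9. Promoter and protein sequences, planned for, are not analysed here.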

Additional observations from a re-analysis of the deposited data

How the results depend on the processing

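With the 3′ to 5′ ratio of gapdhs or actc1b as a covariate, 44 and 26 probe sets were called, against 368, and with single arrays left out 114 to 461, lowest without wild type replicate 2; the counts were 210, 200 and 170 without mutant replicates 1, 2 and 3. Member probe sets called numbered 5 with an offset of 64 (450 over all probe sets). They numbered 0 in limma with a 50% filter, the gapdhs ratio or the actc1b ratio. At an unadjusted p under 0.05 there were 9 of 77, 9 of 94 and 7 of 94, against 21.8%, 10.2% and 11.7% of all probe sets. With single arrays left out 0 to 4 member probe sets were called, 0 without wild type replicate 2 (13 of 94 unadjusted, against 15.7% of all). The 50% filter removes the called probe sets, which are dim; elsewhere the cause was not tested. The median of replication genes was -0.12 with the actc1b ratio, and -0.096 to -0.019 over left-out arrays. That of mitosis genes was 0.00695 and -0.092 with the gapdhs and actc1b ratios, and 0.040 to 0.17 over left-out arrays. With the replicate block 260 probe sets and 3 members were called, the latter 1 probe set each of ccnb3, kif20a and kif19; the numbers do not pair the samples. Over 1199 values of 67 named genes or probe sets under the alternatives, 67 ended a call, 12 made one and 40 turned the sign of a difference, none of them of a called probe set (adjusted p of 0.413 or more); for ccnb3 it is the brightest probe set, which was not called, that turned. With the actc1b ratio the difference became -0.078 for ncapg, -0.10 for bub1ba, -0.19 for bub3, -0.96 for cdc20, -0.43 for plk1, -0.62 for ccna2, -0.35 for ccnb1, -0.52 for ccnb3, -0.31 for kif23, 0.0069 for kifap3a, 0.45 for ccne1, 0.035 for cdk2, -0.12 for pcna, -0.18 for rrm1, -0.22 for mcm4 and 0.15 for nanos3. With the gapdhs ratio the difference became -0.24 for bub3, -0.11 for cdc20, -0.013 for plk1, -0.26 for ccna2, -0.16 for ccnb1, -0.045 for cdk1, 0.18 for cdk2, -0.038 for pcna, 0.0022 for cdc45, -0.086 for mcm4 and 0.060 for mcm7. With quantile normalization the difference became -0.070 for pcna. With median centring the difference became -0.028 for mcm4. Over left-out arrays the differences that turned ran from -0.0042 to 0.19 for cenps, -0.15 to 0.53 for cdc20, -0.015 to 0.34 for plk1, -0.079 to 0.25 for ccna2, -0.14 to 0.26 for ccnb3, -0.12 to 0.038 for cdk2 and -0.037 to 0.097 for mcm4. Dim signal limits what can be said of mcm6, mcm6l, mcm9, ccna1, ccnb1l, bub1bb and kifap3b.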
